A study of Oryza sativa Japonica Group with 15 samples.

Results

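The transcripts described here are 264 probe sets of the rice genome array whose signal was strongly lower at 6 h after gravistimulation in the upper and in the lower flank of the shoot base. They were selected on measured values. The log2 signal, centred on the median of each array, had to be at least 1.5 lower at 6 h than at 0 h in the mean of each flank, the 0 h mean had to reach 2.5, and all 6 flank arrays at 6 h had to lie below all 3 arrays at 0 h. Of 57381 probe sets on the array, 57258 are no controls, 17712 of these reached the 0 h level and 271 met the limits. Genes of MCM, ORC, RPA, CDK, CDC and cyclin proteins and α-expansins were left out by name, which removed 7 (OsMCM4, OsMCM5, OsMCM6, OsMCM7, OsRPA70B, OsRPA32A and CYCD3;2). No probe set annotated as an α-expansin had met the limits. Members without a symbol or description could not be screened by name. All 264 members passed the filter of the statistical tests. Since the rule used the 0 h and 6 h arrays, the falls themselves are a description and carry no test.

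The series holds 15 arrays from japonica rice seedlings of 21 days, in 5 groups of 3 biological replicates. Group 0 h is the whole shoot base before gravistimulation. The 4 other groups are flank pieces cut 0.5 h or 6 h after seedlings had been laid horizontally, with upper and lower flanks kept separate. Every group shares a dark period before the start. For the stimulation itself the labels give no light and the study's methods a dim green light. Each sample is RNA pooled from many shoot bases or flank pieces, so p-values measure the spread between pools, and flanks of seedlings that were kept upright were not analysed here. Whole bases against flank pieces, hours since the last daylight and orientation therefore cannot be told apart in any 6 h against 0 h difference. In bulk RNA, fewer cells of a type and less RNA per cell cannot be told apart either.

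The shoot base of a grass seedling holds the shoot meristem, young leaf bases and elongating sheath tissue, where division, wall synthesis and vascular differentiation run side by side. When a seedling is laid flat, auxin gathers on the lower side, the lower flank elongates faster than the upper, and the shoot bends upward. The members here were chosen for the other case, a low signal in both flanks together.

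Of the members, 197 carry 1 gene in the array's annotation, from 190 different genes, 2 carry several and 65 carry none. A symbol or a locus description was at hand for 43. The other members are named by their gene or probe set identifier, without a role. The genes lie on all 12 chromosomes of the RefSeq rice assembly, which was used for names and gene order alone. Within this order 1 pair of member genes was adjacent, BGLU30 and LOC9266075 on chromosome 9, and 2 pairs including this one were at most 3 genes apart.

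At 0 h the members had log2 signals of 2.52 to 7.58 with a median of 4.13, on a scale whose 0 is the median of all probe sets on the array. All 17712 probe sets at or above the same floor had a median of 4.42. At 6 h the median was 1.96 in the upper and 2.03 in the lower flank, and 13 members lay below the array median in at least 1 flank, where signals are imprecise. The differences from 0 h ran from −5.02 to −1.5 in the upper flank (median −1.99) and from −6.35 to −1.51 in the lower (median −1.95), against medians of −0.1 and −0.16 over all 17712. A fall of at least 2 in both flanks was reached by 92 members, and one of at least 3 by 17. Over all 28629 probe sets tested with limma, 15.4% were called lower and 8.04% higher in the upper flank at 6 h than at 0 h (Benjamini-Hochberg adjusted p under 0.05), and 14.3% lower and 6.21% higher in the lower flank. Of the members 263 were called lower in each flank, which the rule had all but fixed.

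**Figure D1:**
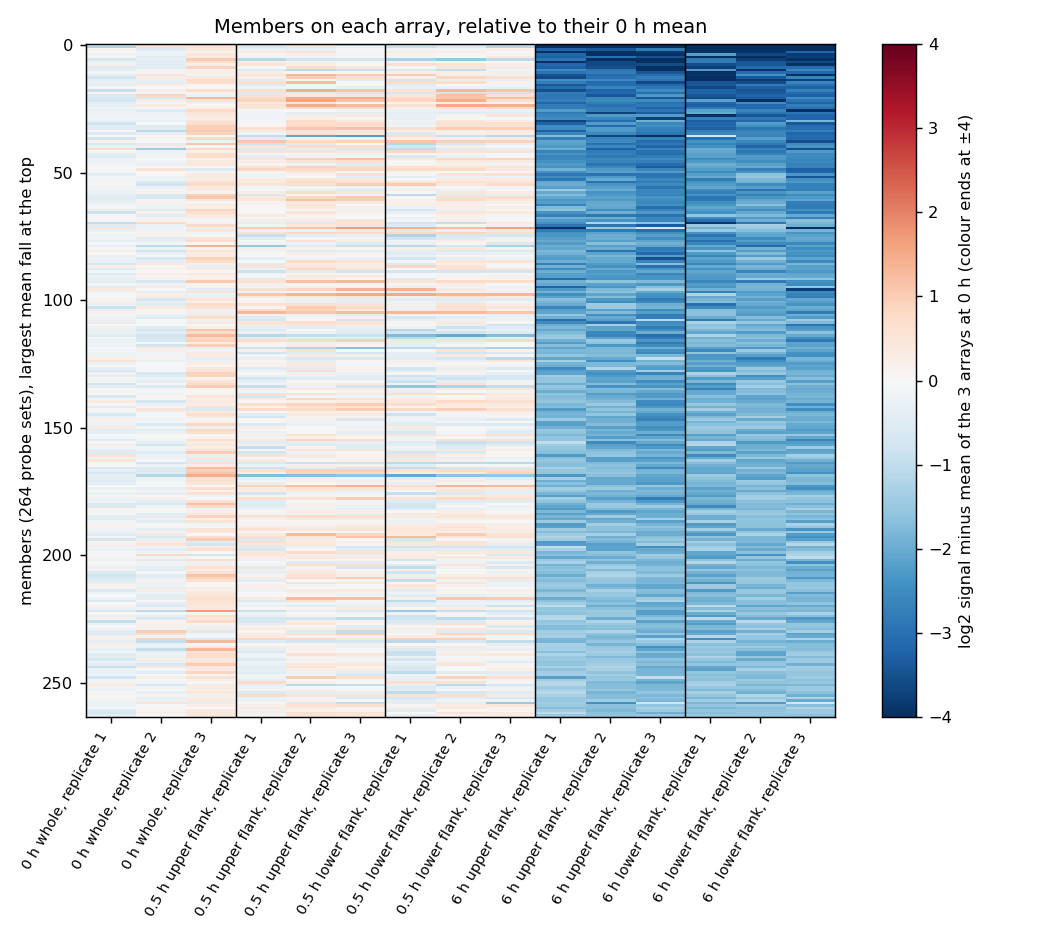
Log2 signal of the 264 members (lines, ordered by mean fall at 6 h) on each of the 15 arrays (columns), relative to the member's mean at 0 h, with colours ending at 4 in either direction. The 6 flank arrays at 6 h are blue throughout, the 6 arrays at 0.5 h are close to 0 h for most members, and 0 h replicate 3 is redder than the other 0 h arrays.

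One 0 h library stood apart in these members. Replicate 3 was the highest of the 3 arrays at 0 h in 197 of 264 members (74.6%), against 42.2% of all probe sets at or above the floor, and its median excess over the mean of the other replicates was 0.56 on the log2 scale against 0.08. Without it 170 of the 264 still met the rule and 94 did not, 87 of them because a flank's difference rose above −1.5, and 18 members slipped under the 0 h floor. None changed direction, since the highest difference without replicate 3 was −0.9 in the upper and −0.81 in the lower flank. Of the 43 members with a symbol or locus, 25 met the rule without it. Members with a symbol or locus that did not are given below with their values without replicate 3. The others named below that did not are LOC4328928 (−1.16 and −1.53), LOC4350369 (−1.5 and −1.36), LOC4339315 (−1.26 and −0.97), LOC4334511 (−0.9 and −0.81), LOC9266075 (−1.29 and −1.55) and probe set OsAffx.3291.1.S1_at, whose 0 h level became 2.49.

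Just inside the limit, LOC4328928 differed by −1.5048 in the upper and −1.8768 in the lower flank, LOC4350369 by −1.6411 and −1.5061, and probe set OsAffx.31531.1.S1_s_at by −1.6729 and −1.5068. Just outside, OsAffx.3965.1.S1_at differed by −1.6 and −1.4998, LOC4328901 by −2.794 and −1.4989, and OsAffx.24631.1.S1_at by −1.497 and −1.9152. The values on either side of the limit are nearly the same, so that membership near it rests on differences far smaller than the spread between arrays.

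The 12 members with the lowest mean difference are mostly unannotated. Lowest of all was probe set Os.24410.1.S1_at, with 3.03, 2.99 and 3.77 on the arrays at 0 h, 2.39 to 2.84 at 0.5 h, −1.67, −2.05 and −1.41 in the upper flank at 6 h and −2.1, −3.77 and −3.4 in the lower. It was thus 31.5-fold and 81.8-fold lower, ending below the array median on all 6 arrays at 6 h. Its companion Os.24410.1.S1_s_at, which shares the same transcript cluster on the array, was 28.4-fold and 56-fold lower. Folds of this size end in the imprecise range and their exact size is uncertain.

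LOC4337229 had the lowest mean difference among members with a gene. Its signals of 5.87, 5.74 and 6.07 at 0 h and 5.79 to 6.42 at 0.5 h stood against 0.9, 1.03 and 2.05 in the upper and 1.44, 1.99 and 2.72 in the lower flank at 6 h, 23.6-fold and 14.4-fold lower. All of these lie above the array median, and no 6 h array came near the 0 h arrays. Next among the genes were LOC4346594 (13.4-fold and 12.4-fold lower in the upper and lower flank) and LOC4332224 (14.6-fold and 9.6-fold). Without 0 h replicate 3 their log2 differences were smaller, −3.22 and −3.11 for LOC4346594 and −3.52 and −2.91 for LOC4332224. LOC4346594 was already lower at 0.5 h (log2 difference −1.08), with every 0.5 h array below every 0 h array. The other lowest members were probe sets with no gene, OsAffx.15177.1.S1_x_at and its companion OsAffx.15177.1.S1_at, OsAffx.24672.1.S1_at, OsAffx.15406.1.S1_at, OsAffx.3291.1.S1_at, OsAffx.30947.1.S1_at and Os.46987.1.S1_x_at. Of these OsAffx.15406.1.S1_at was the brightest, with 5.28, 4.69 and 5.38 at 0 h against 1.99, 1.51 and 1.55 and 1.58, 1.73 and 1.18 at 6 h.

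Of 8 lists of wall and glycoside genes, 4 held a member, with 8 member genes of 57 tested, and the other 4 (xyloglucan endotransglucosylases, pectin enzymes, arabinogalactan proteins and class III peroxidases) held none of 46. The lists are parted here by whether they held a member, so these counts are a description. The 4 lists without a member were in the planned set of lists and the 4 with a member were not. The counts therefore cannot serve as a contrast between families. Over all 28629 probe sets tested, 264 were members. BGLU30, a β-glucosidase of the family that releases sugars from glucosides, was the brightest of the 8 member genes. Its brighter probe set read 6.58, 6.95 and 7.81 at 0 h and 6.51 to 7.05 at 0.5 h, then 4.48, 4.24 and 4.33 in the upper and 4.95, 4.83 and 4.62 in the lower flank at 6 h, 6.79-fold and 4.96-fold lower. The other BGLU30 probe set was also a member, at 9.68-fold and 6.15-fold lower. The 6 h arrays of both flanks thus lay more than 1 log2 unit below the lowest 0 h array. A second β-glucosidase gene, BGLU19, went from 2.26, 3.16 and 2.71 at 0 h to 1.27, 1.39 and 0.71 and 0.4, 1.44 and 0.46 at 6 h, with 3.1 to 3.98 in between. Of the 20 other β-glucosidases tested, 6 were lower and 3 higher in the upper flank, and 5 lower and 1 higher in the lower.

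EXLA4, an expansin-like gene of the superfamily of wall-loosening proteins, was 4.82-fold lower in the upper and 6.47-fold lower in the lower flank. The 0 h arrays read 3.39, 3.59 and 3.54, the 0.5 h arrays 3.4 to 3.98, and the 6 h arrays 1.07, 1.33 and 1.31 in the upper and 0.97, 1.16 and 0.3 in the lower flank. Os02g42650, described as a β-expansin, fell from 3.57, 2.91 and 3.6 at 0 h to 1.57, 1.23 and 0.55 and 1.84, 1.51 and 1.02 in the upper and the lower flank. In both genes every 0.5 h array stayed above every 6 h array. Of the 12 other tested genes in the list of β-expansins and expansin-like proteins, 4 were lower and 3 higher in the upper flank at 6 h, and 3 lower and 5 higher in the lower (limma, adjusted p under 0.05).

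Polysaccharide enzymes in the set were OsCslF8, of the cellulose synthase-like family that makes the mixed-linkage glucan of grass walls, and GLU13 and OsCel9E, endo-1,4-β-glucanases that cut cellulose-type chains. OsCslF8 read 3.57, 3.29 and 3.68 at 0 h and 1.43, 1.56 and 0.7 and 1.17, 1.63 and 1.03 in the upper and lower flank at 6 h, about equal falls of 4.86-fold and 4.71-fold. GLU13 read 4.38, 3.89 and 5.78 at 0 h against 2.63, 2.59 and 2.19 and 2.89, 2.95 and 2.47, so its fall of 4.64-fold and 3.76-fold leaned on 0 h replicate 3. Without that array the log2 differences of GLU13 were −1.67 and −1.36, and those of OsCel9E −1.22 and −1.18. Among the 11 other tested genes of this list, 5 were lower and 0 higher in the upper flank, and 4 lower and 1 higher in the lower, with median differences of −0.71 and −0.44. OsCel9C was 1 of those, with log2 differences of −1.55 (adjusted p = 0.000511) and −2.18 (adjusted p = 5.1e-05) from a 0 h level under the floor of the rule.

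LAC23, a laccase of the family that oxidises phenolic wall precursors, went from 2.91, 2.83 and 3.35 at 0 h to 0.37, 1.0 and 0.57 and 0.68, 1.36 and 0.22 at 6 h. Of the 6 other tested laccases 2 were lower in both flanks and 1, LAC7, was higher in both, at log2 differences of 2.54 and 2.04. OsCASPL2B1, from a family of membrane proteins related to those that organise the Casparian strip, fell 3.36-fold and 3.3-fold. Dimmer probe sets of this gene, with 0 h levels of 1.26 and 1.48, changed less. Their log2 differences were −1.0 and −0.92 for the first and −0.68 and −0.62 for the second, in the upper and lower flank. The secondary wall cellulose synthases CESA4, CESA7 and CESA9, fixed as xylem and fibre markers, are no members, but all 3 moved in the same direction. Their summed linear signal, in units of the array median, was 137 to 191 at 0 h, 140 to 219 at 0.5 h and 60.7 to 88.4 at 6 h, without overlap between 6 h and the earlier arrays. The part of this change in the members' falls was not tested.

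The other markers were matched by symbol or synonym alone, and whether each match reports its cell type was not tested. The meristem markers OSH1 and OSH71 were bright in all groups (group means of 7.21 to 7.44 and of 6.56 to 6.97), and the sum over the 4 of 5 meristem markers found ranged from 267 to 273 at 0 h and from 248 to 327 at 6 h. The epidermal sum over 3 of 3 markers was 149 to 159 at 0 h and 129 to 152 at 6 h. SUT1, the marker of phloem loading, was at 70.7 to 103 at 6 h against 37.2 to 60.9 at 0 h, and the anther markers OSC6 and RTS lay below the array median in every group. The green mesophyll sum over 2 of 4 markers was 36.8 to 46.6 at 6 h against 15.2 to 37.5 at 0 h and 25 to 47 at 0.5 h. Of the 4 endosperm and seed markers found, GLB1 (group means 4.82 to 5.3) and GLUA2 (2.55 to 3.73) lay above the array median in every group and GLUA1 and RP6 below, with a sum of 35.2 to 48.7 at 6 h against 43.5 to 50.4 at 0 h. The part of these changes in the members' falls was not tested either.

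Transcripts linked to the copying of DNA remained among the members after the named replication genes had been left out. OsMET1-2, a methyltransferase that restores CG methylation on newly copied DNA, read 3.56, 3.31 and 5.07 at 0 h and 4.02 to 5.01 at 0.5 h. At 6 h it read 1.89, 1.85 and 1.62 in the upper and 1.04, 1.66 and 1.7 in the lower flank, 4.59-fold and 5.72-fold lower. OsCMT3a, a chromomethylase that acts on CHG sites, went from 2.73, 2.34 and 3.87 at 0 h through 3.39 to 3.93 at 0.5 h to 1.07, 1.48 and 0.64 and 1.29, 0.98 and 0.11 at 6 h. In both genes 0 h replicates 1 and 2 lay below every 0.5 h array, so the step between 0.5 h and 6 h was larger than that from 0 h. Without 0 h replicate 3, OsMET1-2 still met the rule, while OsCMT3a stood at −1.47 and −1.74. Of the 3 other tested methyltransferases, 1 was lower in both flanks, the second MET1 gene (log2 differences −0.93 and −1.17, adjusted p = 0.0139 and 0.00436), and DRM2 and DRM3 were not called.

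OsRBR1, the retinoblastoma-related protein that restrains entry into DNA synthesis, read 2.44, 2.73 and 4.31 at 0 h, 1.19, 1.95 and 1.74 in the upper and 1.02, 1.38 and 1.31 in the lower flank at 6 h. It depends on 0 h replicate 3, without which its differences were −0.96 and −1.34. The same holds for 3 genes of the cytoskeleton and mitosis list: KIN14F, a kinesin motor (−1.37 and −1.35 without that array), NEK1, a kinase of the NIMA family (−1.34 and −1.45), and VLN1, an actin-bundling villin (−1.4 and −1.36). With all arrays these 3 were lower by 2.99-fold, 3-fold and 3.11-fold in the upper and by 2.94-fold, 3.24-fold and 3.03-fold in the lower flank. Of the 56 other tested genes of that list, 18 were lower and 3 higher in the upper flank, and 21 lower and 4 higher in the lower. Among 16 further DNA synthesis genes 10 were lower in the upper and 12 in the lower flank with 0 higher, and among 54 cyclin, CDK, MCM, ORC, RPA and CDC genes 25 and 29 were lower and 2 and 3 higher. The 54 include genes that had met the limits and were left out by name, so part of these falls was all but fixed. The 11 tested histone genes hold no member, with 0 lower and 1 higher in the upper and 2 lower and 2 higher in the lower flank.

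**Figure D2:**
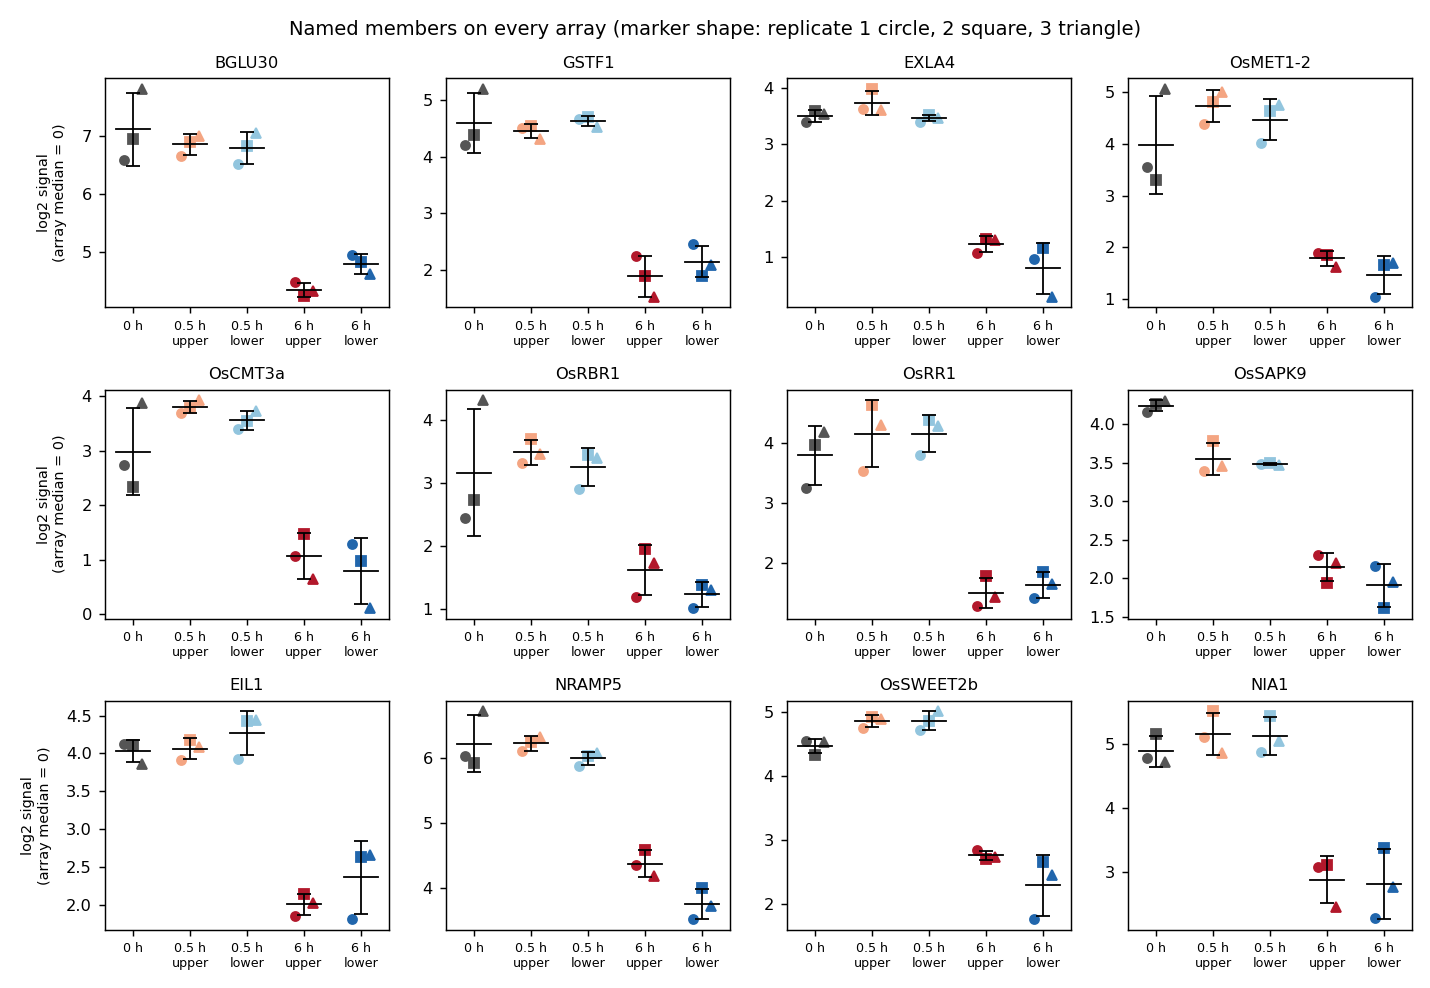
Log2 signal of 12 named members on every array, where 0 is the array median, by group and time. Marker shapes give replicates 1, 2 and 3, and lines with bars give the mean and SD of 3 arrays. In each panel both flanks at 6 h lie below all other arrays, and in OsMET1-2, OsCMT3a and OsRBR1 the 0 h arrays are widely spread, with replicate 3 highest.

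Hormone genes among the members came from several pathways. OsRR1, a type-A response regulator of the cytokinin pathway, read 3.24, 3.96 and 4.17 at 0 h, 3.53 to 4.62 at 0.5 h, and 1.29, 1.78 and 1.43 and 1.41, 1.85 and 1.65 at 6 h in the upper and the lower flank. It was 4.88-fold and 4.45-fold lower, with no 6 h array within 1 log2 unit of the lowest earlier one. None of the 16 other tested cytokinin regulators, receptors and oxidases was called lower in either flank, while 2 were called higher in the upper and 1 in the lower.

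OsSAPK9, a kinase of the abscisic acid and osmotic stress pathway, was already low at 0.5 h. Its signals were 4.16, 4.26 and 4.3 at 0 h, at 0.5 h 3.39, 3.78 and 3.46 (upper) and 3.48, 3.5 and 3.47 (lower flank), and 2.3, 1.94 and 2.2 and 2.16, 1.61 and 1.95 at 6 h. The groups of the 3 times did not overlap. Of the 9 other SAPK genes tested, 1 was lower in both flanks, 3 were higher in the upper and 2 in the lower.

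EIL1, a transcription factor of the ethylene pathway, stayed at 3.91 to 4.44 at 0.5 h beside 4.12, 4.11 and 3.86 at 0 h, and fell to 1.86, 2.14 and 2.02 and 1.81, 2.63 and 2.66 at 6 h. The ethylene pathway also holds Os08g30080, described as an ACC oxidase, the enzyme of the last step of ethylene synthesis, which is taken up with the flank differences. Of 13 other ethylene genes tested 4 were lower and 1 higher in the upper flank, and 1 lower and 4 higher in the lower. Os02g24740, annotated as OsSAUR9 of the auxin-induced SAUR family, read 2.51, 3.03 and 3.27 at 0 h, 0.09, −0.02 and −0.02 in the upper and 0.75, 1.31 and 0.62 in the lower flank at 6 h. The 11 other SAUR genes tested took the flanks apart, with 3 lower and 2 higher in the upper flank and 0 lower and 8 higher in the lower. Many descriptions used to fill the lists come from the study's tables of transcripts that differed between the flanks in these samples. This split is therefore not independent evidence of a direction.

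Transporters and assimilation enzymes included NRAMP5, which takes up manganese. It was among the brightest named members, at 6.03, 5.93 and 6.73 on the 0 h arrays, 5.88 to 6.33 at 0.5 h, and 4.35, 4.59 and 4.18 and 3.53, 4.0 and 3.73 at 6 h in the upper and the lower flank (3.62-fold and 5.56-fold lower). HAK4, of a potassium transporter family, was 3.55-fold and 3.22-fold lower (log2 differences −1.63 and −1.49 without 0 h replicate 3). The 50 other metal and potassium transporters tested were mixed, with 7 lower and 11 higher in the upper and 6 lower and 8 higher in the lower flank. NIA1, which encodes nitrate reductase, the first step of nitrate assimilation, read 4.78, 5.16 and 4.72 at 0 h against 3.08, 3.12 and 2.47 and 2.29, 3.38 and 2.78 at 6 h. Of the 13 other nitrate and ammonium genes tested, 2 were lower in the upper and 3 in the lower flank, with 0 higher.

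Sugar transport was represented by OsSWEET2b and Os05g12320, of the SWEET or MtN3 family of sugar carriers, and by OsSUT2, a sucrose carrier. The brighter OsSWEET2b probe set read 4.55, 4.34 and 4.53 at 0 h and 4.72 to 5.02 at 0.5 h, all above 0 h, before it fell to 2.84, 2.71 and 2.74 and 1.76, 2.66 and 2.45 in the upper and the lower flank. The second OsSWEET2b probe set, also a member, was 3.82-fold and 3.8-fold lower. Os05g12320 read 6.86, 6.7 and 6.28 at 0 h against 4.68, 4.23 and 3.62 and 4.6, 4.78 and 4.44 at 6 h. For OsSUT2 the probe sets disagree: the member fell 3.71-fold and 4.07-fold, while a brighter probe set of the gene differed by −0.52 in the upper (adjusted p = 0.0106) and 0.08 in the lower flank (adjusted p = 0.712). The fall of OsSUT2 is uncertain for that reason and because without 0 h replicate 3 the member stood at −1.44 and −1.57.

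Redox and metabolic genes completed the named members. GSTF1, a glutathione S-transferase, read 4.2, 4.39 and 5.2 at 0 h, 4.32 to 4.7 at 0.5 h, and 2.24, 1.89 and 1.52 and 2.45, 1.9 and 2.09 at 6 h, 6.59-fold and 5.48-fold lower. The 5 other glutathione S-transferases tested were not called in either flank. ADC2, an arginine decarboxylase that starts the putrescine pathway, was 3.77-fold and 4.67-fold lower. OsTrxf, a chloroplast thioredoxin, was 3.56-fold and 3.26-fold lower (−1.61 and −1.48 on the log2 scale without 0 h replicate 3), OsAPRL1, a thioredoxin-like protein related to APS reductase, 3.02-fold and 3.72-fold, and the glutaredoxin GRXC3 4.22-fold and 3.54-fold (−1.57 and −1.32 without it). Of 34 other thioredoxins and glutaredoxins tested, 1 was lower in each flank, and 8 were higher in the upper and 3 in the lower.

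Other described members were Os09g20000, a metal ion binding protein (7.08-fold and 5.31-fold lower in the upper and the lower flank), OsTDL1B, a small secreted protein of the TPD1-like family (4.6-fold and 5.05-fold), Os06g35960, described as a heat shock factor (6.08-fold and 3.44-fold), and OsC3H23, a CCCH zinc finger protein (3.29-fold and 3.3-fold). OsC3H23 stood at −1.39 in both flanks without 0 h replicate 3. Os08g37730, described as a helix-loop-helix-like protein, stood at −2.15 and −1.43 without it, and Os01g55280, an expressed protein, at −1.94 and −1.1. Of 42 other heat shock genes tested 8 were lower and 5 higher in the upper flank and 4 lower and 5 higher in the lower. Altogether 20 of 38 gene lists held a member and 36 member genes were in a list. Some lists were not in the planned set, so this share of lists is a description. The 18 lists without a member hold 321 tested genes, counted per list, among them the circadian clock, light harvesting, MYB, NAC, jasmonate, peroxidase and cytochrome P450 lists.

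Probe sets for the same gene did not always move together. In 7 genes both member probe sets agreed by construction of the set, and 28 genes had 39 further probe sets that are no members. Of the 15 of these that reached the 0 h floor, 9 were below 0 in both flanks, 6 of them by at least 1, and 7 lay above −0.5 in at least 1 flank. For LOC4333690 the member fell while probe sets of the same gene with 0 h levels of 8.44 and 8.55 differed by at most 0.02 and another, Os.57556.1.S1_x_at, was higher at 1.24 and 1.19. For LOC4351977 and LOC4324944 a brighter probe set differed by −0.09 and 0.13 in the upper flank. For LOC4331596 another probe set, with a 0 h level of 3.06, differed by 0.12 in the upper and −0.17 in the lower flank. The fall of these genes, chosen here after their values were seen, holds for 1 probe set of each and not for the gene as a whole.

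At 0.5 h the members as a group had not fallen. Their median difference from 0 h, both flanks averaged, was 0.05 (range −1.69 to 1.36), against −0.1 over all probe sets at or above the floor. It was above 0 in 139 members and below 0 in 125, at least 0.5 in 42 and at most −0.5 in 29. Over all 17712 it was above 0 in 6036 and below 0 in 11676, at least 0.5 in 415 and at most −0.5 in 1302. These values share the 0 h arrays with the rule and are given without a test. Without 0 h replicate 3 the median became 0.2 (against −0.07 over all), with 184 members above 0, 69 at least at 0.5 and 16 at most at −0.5.

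In 22 members (8.33%) all 6 arrays at 0.5 h were above all 3 arrays at 0 h, against 3.24% of all probe sets at or above the floor. In 13 members (4.92%) all 6 were below, against 11.5%. Against only the other 0 h arrays, with replicate 3 left out, 70 members (26.5%) were wholly above and 16 (6.06%) wholly below, with 7.73% and 16.8% over all. The direction of the contrast with all probe sets was the same either way, and its size was not.

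Named members on the rising side at 0.5 h were BGLU19 (log2 difference 0.75 over both flanks), OsCMT3a (0.7), OsMET1-2 (0.62) and Os09g20000 (0.58). For Os09g20000 all 6 arrays, at 4.03 to 4.45, lay above the 0 h arrays at 3.66, 3.38 and 3.81. Largest were 3 genes without a role, LOC4336269 (1.36), LOC4344051 (1.34) and LOC4335334 (1.22), and lowest were LOC4339315 (−1.69), Os02g57110 (−1.4) and LOC4330542 (−1.17), chosen here after their values were seen. The early falls of LOC4339315 and Os02g57110 leaned on 0 h replicate 3. For LOC4339315 the linear 0 h signals of replicates 1, 2 and 3 were 109.3, 48.57 and 304.8. Os02g57110, of the GDSL lipase family, read 4.87, 4.58 and 6.62 at 0 h, at 0.5 h 4.24, 4.41 and 4.49 (upper) and 3.6, 3.36 and 3.62 (lower flank), and 3.77, 2.72 and 2.3 and 4.14, 3.55 and 3.34 at 6 h. Its lower flank at 0.5 h was thus as low as at 6 h, and without 0 h replicate 3 its 6 h differences were −1.79 and −1.05.

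**Figure D3:**
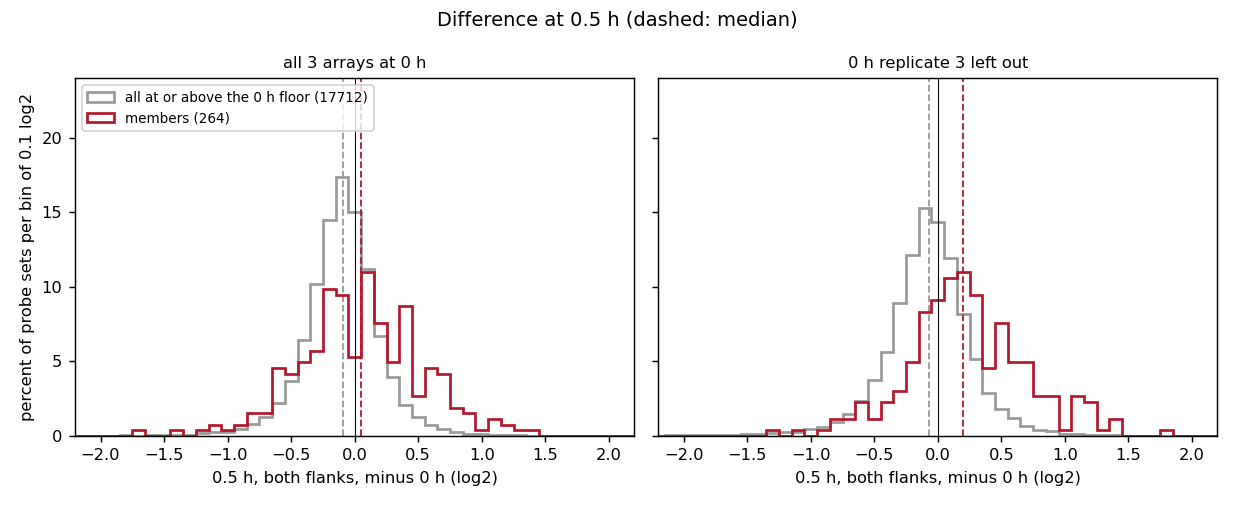
Share of probe sets (percent per bin of 0.1) by log2 difference between 0.5 h, both flanks averaged, and 0 h, for the 264 members and all 17712 probe sets at or above the 0 h floor. Dashed lines are medians, at 0.05 and −0.1 with all 0 h arrays (left) and at 0.2 and −0.07 without 0 h replicate 3 (right).

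Between 0.5 h and 6 h nearly all members dropped. In 257 of 264 (97.3%) all 6 arrays at 6 h lay below all 6 at 0.5 h, against 17.8% of all probe sets at or above the floor, and the median difference between the times was −2.05 against −0.04. The 6 h arrays chose the members, so this share is a description. The 7 exceptions were Os02g57110, GRXC3, LOC4334975, LOC4341467, LOC4339315, LOC4334511 and LOC4337479.

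The flank difference, lower minus upper, was not used by the rule, although the level of each flank at 6 h was. At 6 h its median over the members was −0.02, against −0.08 over all probe sets at or above the floor, with 20 members at least 0.5 higher and 20 at least 0.5 lower in the lower flank. Of all 17712 probe sets at or above the floor, 773 were at least 0.5 higher and 600 at least 0.5 lower. By limma 4 members were higher in the lower flank (adjusted p under 0.05), beside 1.47% of all probe sets tested, and 3 were lower, beside 0.283%. Together these are 2.65% of the members, and 32 members (12.1%) had an unadjusted p under 0.05, as did 11.4% of all probe sets tested. When flank samples of 1 number were taken as pairs, by a replicate block, 13 were higher and 8 lower, the earlier 7 among them, while over all probe sets tested the calls rose to 2.65% higher and 1.08% lower. A flank difference in these members is a difference in how far both flanks had fallen.

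**Figure D4:**
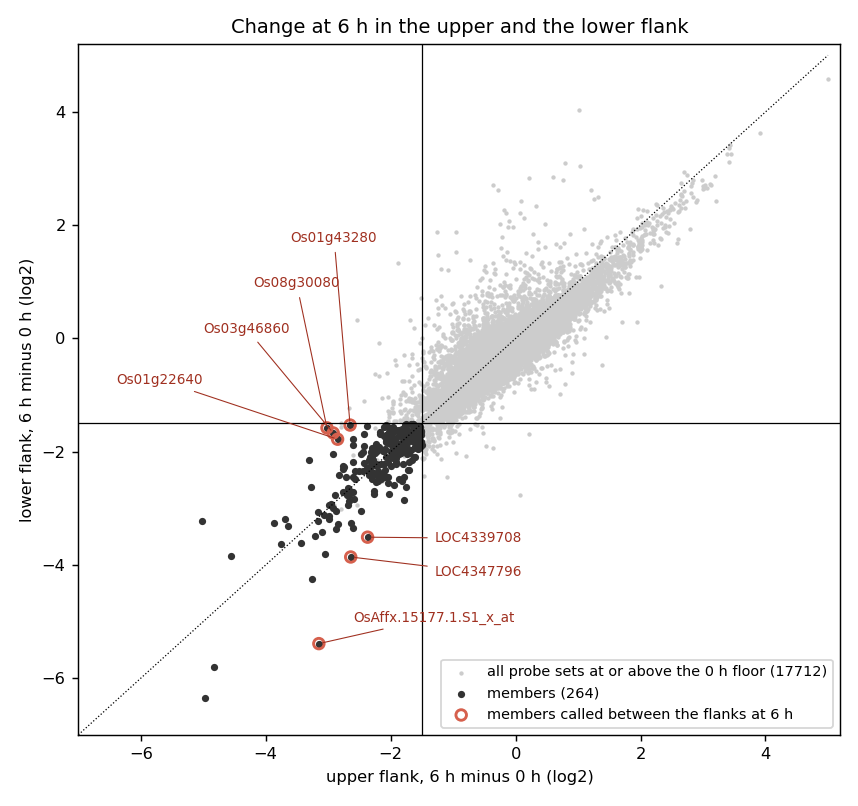
Log2 difference between 6 h and 0 h in the upper flank (horizontal) and the lower flank (vertical) for all probe sets at or above the 0 h floor (grey), the members (black) and the 7 members called between the flanks at 6 h (ringed). Solid lines mark the limit of −1.5 and the dotted line equal change. Most members lie close to equal change, 4 ringed members fell less in the lower flank and 3 fell more.

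Os08g30080, the ACC oxidase gene, had the largest difference among the 4 that were higher in the lower flank. It read 4.29, 4.53 and 5.6 at 0 h, at 0.5 h 4.7, 5.22 and 5.37 (upper) and 4.31, 4.9 and 5.02 (lower flank), 1.93, 1.93 and 1.49 in the upper and 3.33, 3.49 and 2.87 in the lower flank at 6 h. The flanks did not overlap at 6 h, with a log2 difference of 1.45 (standard error 0.32, adjusted p = 0.0399 by limma). Its fall in the lower flank was −1.18 without 0 h replicate 3.

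Os03g46860, a DNA-binding protein of the bHLH class in the study's annotation, read 4.03, 4.2 and 4.78 at 0 h, 4.14, 4.08 and 3.99 and 3.81, 4.09 and 3.89 in the upper and lower flank at 0.5 h, and 1.5, 1.5 and 1.25 and 2.87, 2.65 and 2.47 at 6 h. Its flank difference at 6 h was 1.25 (standard error 0.18, limma adjusted p = 0.00269). Os01g43280, described as a hydroquinone glucosyltransferase, which would join a sugar to a phenolic compound, read 3.17, 3.44 and 3.84 at 0 h, 4.0, 4.12 and 3.98 and 3.6, 3.87 and 3.57 at 0.5 h, and 0.95, 0.55 and 1.0 and 2.21, 1.95 and 1.71 at 6 h. It differed by 1.12 (standard error 0.19, limma adjusted p = 0.00653). In both genes the upper flank fell lowest and the lower stayed between it and the earlier arrays. Without 0 h replicate 3 the lower flank of these genes stood at −1.45 and −1.35 against 0 h.

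Os01g22640, of the GDSL lipase class and described as a fucosidase precursor, read 3.28, 2.77 and 3.59 at 0 h, 3.61, 3.26 and 3.16 and 3.19, 3.38 and 3.03 at 0.5 h, and 0.5, 0.36 and 0.22 and 1.67, 1.43 and 1.2 at 6 h. The flanks differed by 1.07 (standard error 0.21, limma adjusted p = 0.0168). This holds for the member probe set alone. Dimmer probe sets of the gene, with 0 h levels of 0.77 and 1.0, stood closer together in the flanks. Os.38245.2.S1_at differed from 0 h by −1.3 in the upper and −1.17 in the lower flank, and Os.38245.2.S1_x_at by −1.47 and −0.84. Other genes of the lists of these 4 also read higher in the lower flank in many cases. In all, 11 of 21 tested bHLH genes, 12 of 21 UDP-glycosyl transferases, 8 of 12 GDSL lipases and 6 of 15 ethylene genes were called higher there, with 0 called lower, and each count includes the member. Many descriptions come from the study's tables of transcripts that differed between the flanks in these samples, so these counts are not independent evidence of a direction.

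Lower in the lower flank were LOC4347796, LOC4339708 and probe set OsAffx.15177.1.S1_x_at, none of which has a role in the sources used here. LOC4347796 read 5.67, 5.81 and 6.88 at 0 h, 5.64, 6.04 and 5.67 and 5.38, 5.78 and 5.79 at 0.5 h, 3.69, 3.56 and 3.19 in the upper and 2.13, 2.25 and 2.4 in the lower flank at 6 h, a difference of −1.22 (standard error 0.27, limma adjusted p = 0.039). LOC4339708 read 5.85, 5.76 and 6.41 at 0 h, 5.86, 6.31 and 6.36 and 5.7, 6.17 and 6.48 at 0.5 h, 3.38, 3.75 and 3.77 and 2.04, 2.6 and 2.84 at 6 h, a difference of −1.14 (standard error 0.26, limma adjusted p = 0.0468). Both were well above the array median in either flank. OsAffx.15177.1.S1_x_at differed by −2.25 (limma adjusted p = 0.0385), but its lower flank, at −2.71, −0.65 and −0.1, lay below the array median, and its companion OsAffx.15177.1.S1_at, at −0.98, was not called (adjusted p = 0.121).

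**Figure D5:**
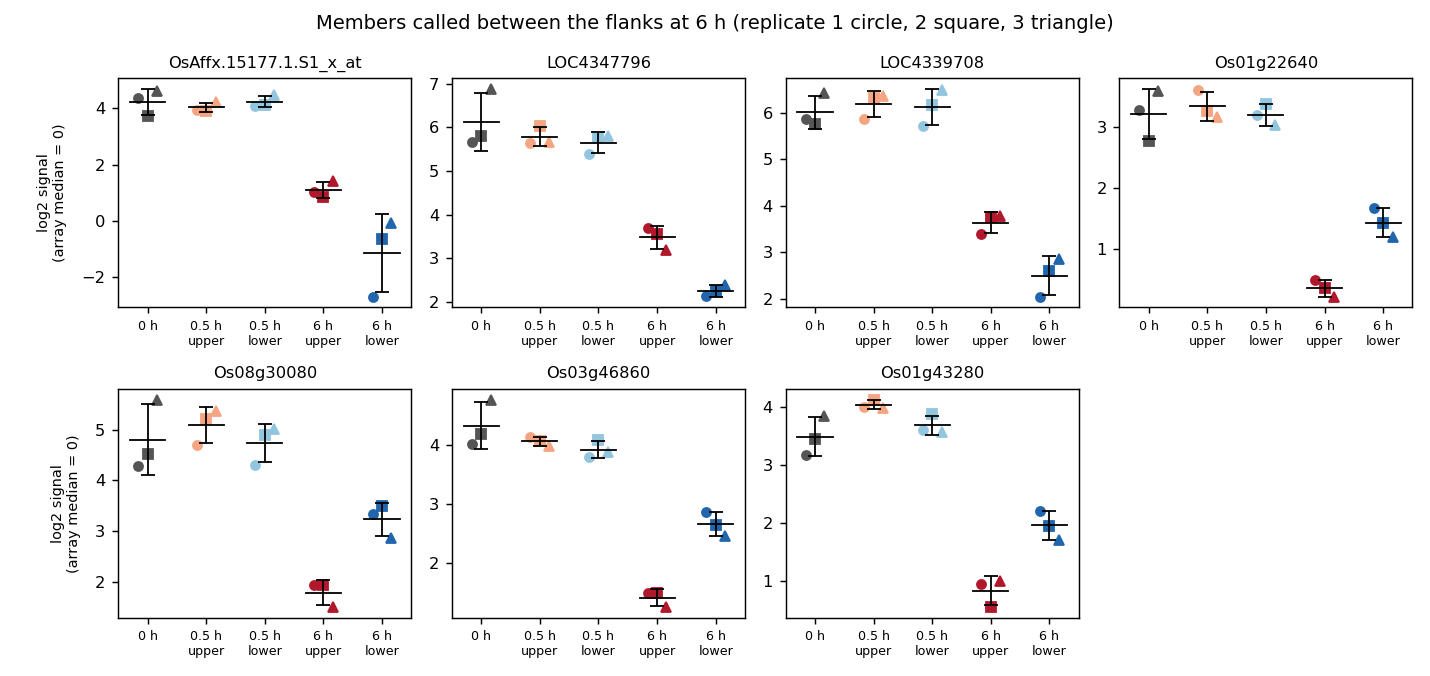
Log2 signal on every array, where 0 is the array median, of the 7 members called between the flanks at 6 h. Marker shapes give replicates 1, 2 and 3, and lines with bars give the mean and SD of 3 arrays. The flanks overlap at 0.5 h in 6 of the 7 and are apart at 6 h in all 7. In the exception at 0.5 h, Os01g43280, the lower flank lay below the upper, the opposite of 6 h.

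Several of these calls were close to the threshold. Each of the 15 libraries was left out in turn. LOC4347796, LOC4339708 and OsAffx.15177.1.S1_x_at were each lost in 11 of these 15 fits, at limma adjusted p values up to 0.137, 0.18 and 0.158. LOC4347796 was kept only without one of the 0 h libraries or 0.5 h lower replicate 1, LOC4339708 only without 0 h replicate 3, 0.5 h lower replicate 1 or 3 or 6 h lower replicate 3, and OsAffx.15177.1.S1_x_at only without 0 h replicate 2 or 3 or 6 h lower replicate 1 or 3. Os08g30080 was lost in 9 fits, those without replicate 2 or 3 of either flank at 0.5 h, any upper replicate at 6 h or lower replicate 1 or 2 at 6 h (limma adjusted p = 0.0544 to 0.173). Os01g22640 was lost in 4, those without replicate 2 or 3 of the upper or 1 or 2 of the lower flank at 6 h (limma adjusted p = 0.062 to 0.0848). The number of called members was 2 without 6 h upper replicate 2, upper replicate 3 or lower replicate 2, 3 without 0.5 h replicate 2 of either flank or upper replicate 3, and 4 without 0.5 h upper replicate 1, 0.5 h lower replicate 3 or 6 h lower replicate 1. The calls of Os03g46860 and Os01g43280 held without any single library, but not without replicate 1 of all groups (limma adjusted p = 0.067 and 0.105), where none of the 7 remained and 2 other members were called. Members added by the block include BGLU30 (by its dimmer probe set, block adjusted p = 0.0303), Os02g24740 (0.0341), Os06g35960 (0.00777) and Os01g55280 (0.00777), higher in the lower flank, and NRAMP5 (0.0277), lower.

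At 0.5 h no member was called between the flanks by limma, beside 0.00699% of all probe sets tested, 3 members (1.14%) had an unadjusted p under 0.05, against 3.2% of all tested, and 27 members (10.2%) had one with the block, against 9.7% of all tested and again with 0 called. Their median difference was −0.13 against −0.09 over all probe sets at or above the floor, with 57 members above 0 and 207 below. Of all 17712 probe sets at or above the floor, 4868 were above 0 and 12844 below, so most lay below 0 there too. The change of the flank difference from 0.5 h to 6 h was called in 2 members, beside 0.545% of all tested, while 17 (6.44%) had an unadjusted p under 0.05, against 6.02% of all tested. At 0.5 h the lower flank of Os01g43280 lay wholly below the upper, and the flanks of Os03g46860 overlapped. Lower minus upper then rose by 1.47 in Os01g43280 (standard error 0.26, limma adjusted p = 0.0259) and by 1.38 in Os03g46860 (standard error 0.25, limma adjusted p = 0.0304). With the block 7 members were called, 6 of them in this direction, beside 1.04% of all tested, and without centring none. The 2 calls rest on single libraries too: Os01g43280 was lost in 8 of 15 fits without 1 library and Os03g46860 in 11, at limma adjusted p values up to 0.089 and 0.0932. No member was called without 0.5 h upper replicate 1, 2 or 3, 0.5 h lower replicate 1 or 3, 6 h upper replicate 2 or 6 h lower replicate 2, and 1 was called without 0.5 h lower replicate 2, 6 h upper replicate 1 or 3 or 6 h lower replicate 1. Without 6 h lower replicate 1 the call was another member in the opposite direction, and both original calls were lost.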

How the data were processed

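Transcript abundance was measured on 15 Affymetrix rice genome arrays, 3 per group. The values the authors deposited are linear intensities, 1 for each probe set on each array, made with MAS5 per the labels. Their scaling target was not given in the sources used here. No detection calls were used. Signals were taken to log2 and each array was centred on its median. The members and lists were chosen with earlier results of these data known, and the lists were filled from symbols, synonyms and descriptions, so they hold only part of each family. Many descriptions come from the study's tables of flank differences in these samples, so a flank split within a list is not independent evidence.

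The limma package (3.58.1, under R 4.3.3) was fitted to all 15 arrays, with 1 mean per group and eBayes without an intensity trend. The 50% of probe sets with the highest mean were tested (28629, control probe sets left out), with Benjamini-Hochberg adjustment within each comparison. Residual and prior degrees of freedom were 10 and 2.67. The number of arrays limits the precision. Replicate 1 differed in every group alike: its array medians were 22.81 to 29.6 (others 17.16 to 23.05), and the 5′ probe set of the labelling control DapX read 106.6 to 209 (others 16.5 to 26.28).

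Deviations of same-numbered flank samples correlated across probe sets at 0.50, 0.22 and 0.24 at 0.5 h and 0.48, 0.26 and 0.41 at 6 h. For replicate 2 at 0.5 h the highest value outside the pair was 0.21, nearly as high as within it. Across the other pairs the highest value outside the pair ran from −0.23 to 0.05. The main fit, with 1 mean per group, did not treat these samples as pairs. A replicate block for each pair was fitted as an alternative and is given where it moves a count of calls. Genes named are the 12 members with the lowest mean difference, list members (up to 6 a list), members called between the flanks, and 3 probe sets on each side of the limit. A gene with several member probe sets is given by the brightest. Alternatives were other scalings, a floor on signals, other filters, the block, other fall limits and left-out arrays. Gene names come from the array annotation, the study's tables and RefSeq. Sequences and promoter motifs were not analysed here.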

Additional observations from a re-analysis of the deposited data

Results flagged for a closer look

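For 7 members the fall from 0 h to 6 h differed between the flanks, by the limma test of the difference itself. The lower flank was higher by 1.12 on the log2 scale in Os01g43280, by 1.07 in Os01g22640, by 1.45 in Os08g30080 and by 1.25 in Os03g46860. It was lower in LOC4347796 (−1.22), LOC4339708 (−1.14) and OsAffx.15177.1.S1_x_at (−2.25). The flank difference also changed between 0.5 h and 6 h in Os01g43280 (1.47) and Os03g46860 (1.38). Groups of 3 arrays were not searched for outlying samples.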

How the results depend on the processing

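The rule found 264 members. It found 283 without centring, 197 with quantile scaling and 264 with signals below 16 set to 16. A fall limit of −2 left 92 and one of −1 gave 728. Without single arrays, or without replicate 1 of all groups, it found 199 to 350, the lowest without 0 h replicate 3. The 7 calls between the flanks at 6 h became 2 with no filter, 2 with the arrays of the comparison only and 21 with the replicate block, and ranged from 2 to 8 with arrays left out. The 2 without replicate 1 of all groups share 0 with the 7. The 2 calls for the change of the flank difference became 0 on uncentred signals, 0 when no probe set was filtered out and 7 with the replicate block, and ranged from 0 to 3 with arrays left out. The 0 calls at 0.5 h were 0 in each of these fits, the block included. No called difference reversed. The mean 6 h difference of 55 named members kept its sign in 715 of 715 recalculations and moved by over 1 SD in 36. Without centring the members' median difference at 0.5 h was 0.21 in place of 0.05, and without 0 h replicate 1 it was −0.09, recalculations chosen after seeing the data. Signals below the array median, at which 13 members lay at 6 h, limit the size of the largest folds.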
